A study of Mus musculus with 9 samples.

Results

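The interleukin-1 (IL-1) family of secreted cytokines and the receptors that receive them were followed in LPS-treated mouse peritoneal macrophages, the phagocytes of the abdominal cavity. A set of 10 genes was taken by symbol from the deposited table, out of 55335 gene entries: the agonists Il1a, Il1b and Il18, the antagonist Il1rn, the soluble IL-18 trap Il18bp, the receptor chains Il1r1, Il1rap and Il1rl1, the decoy receptor Il1r2 and the inhibitory receptor Sigirr. All 10 were found, each in a single row. Bulk RNA-seq libraries came from 3 groups of 3. LPS+CPZ cells received LPS (lipopolysaccharide, the bacterial component sensed by TLR4) at 1 µg/mL plus CPZ, an agent given only by that abbreviation, at 100 µM, LPS+EtOH cells received the same LPS with 5% ethanol, and LPS cells received LPS alone, in each case for 4 h after 1 h of culture. No strain, age or sex is given in the sources used here, and no group without LPS was analysed here, so that all values are those of LPS-stimulated cells. Every library was made from RNA of 3 samples combined in equal amounts. The labels call the samples biological replicates without naming animals, so p-values measure only the spread between pools. Values are in FPKM (sequenced fragments per unit of transcript length, relative to the mapped total), which allows levels to be compared between genes of different length.

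IL-1α and IL-1β both act through the receptor IL-1R1, which then recruits the shared chain IL-1RAP and signals through MyD88 to NF-kB. IL-1Ra, the product of Il1rn, occupies IL-1R1 without recruiting the second chain, and IL-1R2 binds IL-1 but lacks the intracellular signalling domain, so both restrain the ligands. IL-1β and IL-18 are made as precursors that caspase-1 cuts, IL-18 binding protein holds mature IL-18 away from its receptor, IL-1RL1 (ST2) is the receptor of IL-33, and SIGIRR is a receptor of the family that dampens its signalling. In macrophages LPS is a classical inducer of Il1b, Il1a and Il1rn.

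The libraries differed in more than this family. Neutrophil markers (10 of 10 found) summed to 6384 to 6890 FPKM in LPS+CPZ and 43752 to 48329 FPKM in LPS+EtOH, against 3857 to 5428 FPKM in LPS. Most of each sum was S100a9 and S100a8, at 33420 ± 2070 and 9141 ± 648 FPKM in LPS+EtOH. Between the treatments Ly6g was higher in LPS+CPZ (274 ± 31.1 FPKM against 156 ± 12.3 in LPS+EtOH) and 9 markers were lower. Of all tested genes 61.4% were higher and 15.2% lower in that comparison. After median-ratio scaling, which centres the genes present in every library, 0 markers were higher and 9 lower (35.6% and 31.4% of all genes). Macrophage markers (6 of 6) summed to 688 to 904, 728 to 833 and 884 to 1080.2 FPKM in the same order, whereas markers of large peritoneal macrophages (5 of 5) summed to 20.7 to 34.8 FPKM in LPS+CPZ, 2.15 to 4.39 in LPS+EtOH and 90.3 to 118 in LPS. The near-level macrophage sum held opposite moves: Cd68 averaged 405 ± 67.2 FPKM in LPS+CPZ and 363 ± 34.2 in LPS+EtOH, against 55.5 ± 11.6 in LPS, whereas Lyz2 averaged 217 ± 70.9, 226 ± 50.4 and 733 ± 97.7 FPKM in that order. Fcgr1 averaged 1.41 ± 0.536, 0.116 ± 0.0585 and 6.29 ± 2.27 FPKM, and Csf1r, Adgre1 and Itgam were above 10 FPKM in all 9 libraries. Gata6, the defining factor of large peritoneal macrophages, was below 1 FPKM in all of them. B cell markers (5 of 5) summed to 126 to 167 FPKM in LPS+CPZ, 32.0 to 50.5 in LPS+EtOH and 398 to 607 in LPS. T and NK cell markers (5 of 5) summed to 6.76 to 13.3, 0.352 to 0.708 and 26.9 to 31.3 FPKM in the same order. Eosinophil markers (4 of 4, Epx at 0 in all libraries) summed to at most 4.23 FPKM. The 4 adult globin genes took 0.045 to 0.097% of all FPKM in LPS+CPZ and 0.172 to 0.221% in LPS+EtOH, against 11.5 to 29.4% in LPS. In such bulk samples fewer cells of a type and less RNA per cell cannot be told apart.

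**Figure D1:**
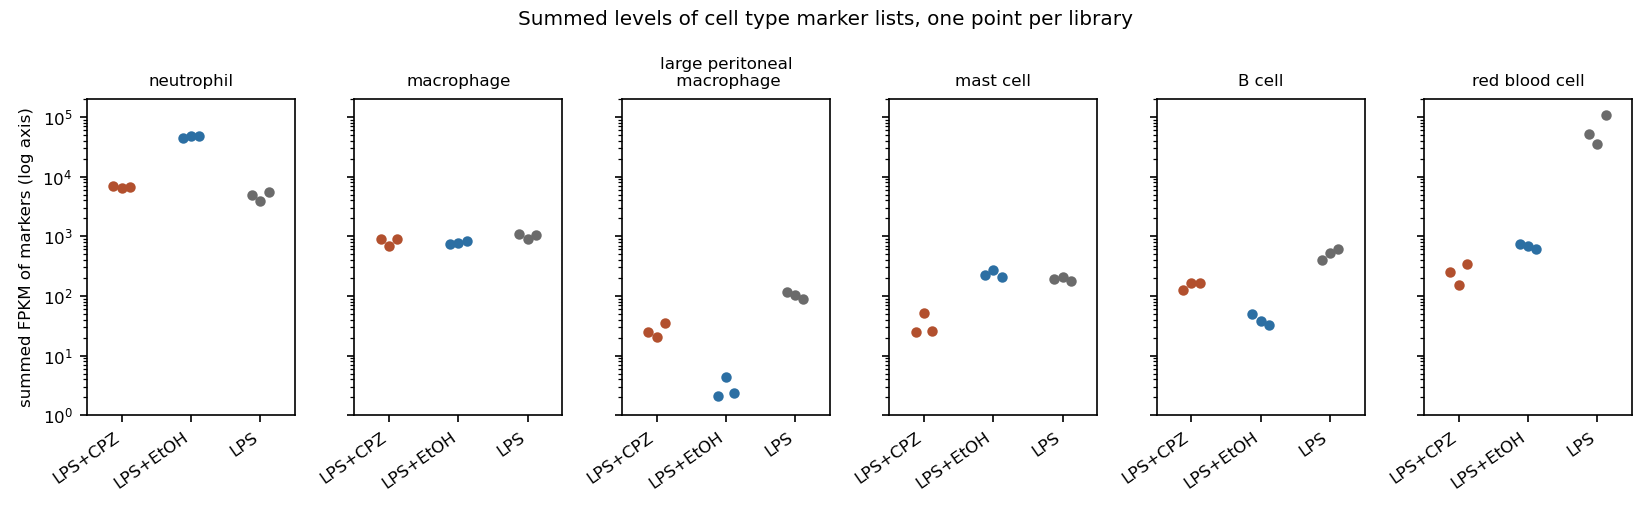
Summed FPKM of 6 cell type marker lists (log axis shared by all panels) in the LPS+CPZ, LPS+EtOH and LPS libraries, 1 point per library. The neutrophil sums of LPS+EtOH, 43752 to 48329 FPKM and mostly S100a9 and S100a8, stand above those of both other groups. The B cell and red blood cell sums are highest in LPS.

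The agonist Il1b (ENSMUSG00000027398) was the most abundant of the 10 genes in every group and ranked 72nd, 18th and 6th by mean FPKM among all gene entries in LPS+CPZ, LPS+EtOH and LPS. It stood at 463, 509 and 447 FPKM in the LPS+CPZ libraries and at 1623, 2610.2 and 2314 FPKM in LPS+EtOH, against 4351, 3073 and 2719 FPKM in LPS. No 2 of the groups overlapped, with LPS highest and LPS+CPZ lowest. Il1b averaged 473 ± 32.3 FPKM in LPS+CPZ (SD, n = 3), 7.15-fold less than in LPS (3381 ± 859), and fell by 2.81 ± 0.22 (SE) on the log2(FPKM + 1) scale on which all tests were run (limma adjusted p = 2.52e-06). Il1a (ENSMUSG00000027399), whose precursor is active without cleavage, stood at 141, 159 and 127 FPKM in LPS+CPZ and at 312, 525 and 296 FPKM in LPS+EtOH, against 796, 464 and 574 FPKM in LPS. LPS+CPZ lay below both other groups, whereas the highest LPS+EtOH library stood above the lowest LPS library. The log2 change of Il1a in LPS+CPZ against LPS was -2.06 ± 0.25 (limma adjusted p = 3.97e-05).

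In LPS+EtOH the direction of change of both agonists turned under median-ratio scaling and under no other scaling tried. As deposited, Il1a changed by -0.71 ± 0.25 and Il1b by -0.63 ± 0.22 in LPS+EtOH against LPS (limma adjusted p = 0.0208 and 0.0215), whereas after median-ratio scaling, which centres the genes present in every library, the changes were 0.39 and 0.47 and did not pass the test (limma adjusted p = 0.232 and 0.128). After quantile normalization they were -1.04 and -1.06. Leaving out LPS+EtOH replicate 1 gave -0.59 for Il1a and -0.43 for Il1b, leaving out LPS replicate 1 gave -0.50 and -0.43, and leaving out LPS+EtOH replicate 3 gave -0.56 for Il1a, each without passing the test. Between the treatments the difference passed the test in all 21 alternatives: Il1a was lower in LPS+CPZ than in LPS+EtOH by a log2 change of -1.36 ± 0.25 (limma adjusted p = 0.000556) and Il1b by -2.18 ± 0.22 (1.16e-05). Il1a and Il1b are neighbours on mouse chromosome 2. The ratio of Il1a to Il1b was 0.306, 0.312 and 0.284 in LPS+CPZ and 0.192, 0.201 and 0.128 in LPS+EtOH, against 0.183, 0.151 and 0.211 in LPS. LPS+CPZ stood above both other groups with no overlap (log2 difference 0.74 ± 0.15 from LPS and 0.82 ± 0.21 from LPS+EtOH, exact permutation p = 0.1 each, the smallest possible, adjusted 0.136), and LPS+EtOH overlapped LPS.

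The antagonist Il1rn (ENSMUSG00000026981) stood at 199, 156 and 130.1 FPKM in LPS+CPZ and at 847, 442 and 353 FPKM in LPS+EtOH, against 163, 142 and 112 FPKM in LPS. All LPS+EtOH libraries stood above all others, with replicate 1 furthest, and LPS+CPZ overlapped LPS. Il1rn rose in LPS+EtOH, to 547 ± 263 FPKM against 139 ± 25.9 FPKM in LPS (3.93-fold, log2 change 1.88 ± 0.30, limma adjusted p = 0.000131). In LPS+CPZ it averaged 162 ± 35.03 FPKM, and the log2 change against LPS was 0.21 with a 95% interval from -0.45 to 0.87 (limma adjusted p = 0.543). It was -0.16 in that comparison with the globin genes left out. In LPS+CPZ it was lower than in LPS+EtOH by a log2 change of -1.67 ± 0.30 (limma adjusted p = 0.000459).

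Because both genes of a ratio are read in the same library, the ratio of antagonist to agonist is not altered by a single scaling factor per library, though quantile normalization can alter it. Il1rn over Il1b was 0.431, 0.307 and 0.291 in LPS+CPZ and 0.522, 0.169 and 0.153 in LPS+EtOH, against 0.0375, 0.0463 and 0.0412 in LPS. Both treatments stood above LPS in every library and overlapped each other. The ratio was 8.13-fold higher in LPS+CPZ than in LPS (log2 difference 3.02 ± 0.20 SE) and 5.73-fold higher in LPS+EtOH than in LPS (2.52 ± 0.57, or 1.95 without LPS+EtOH replicate 1). An exact two-sided permutation test over libraries gave p = 0.1 for each, the smallest value that 3 against 3 libraries can give (0.136 after Benjamini-Hochberg adjustment over the 15 tests of 5 ratios in 3 comparisons). In LPS+CPZ Il1b was 7.15-fold lower and the change of Il1rn did not pass the test, and in LPS+EtOH Il1rn was 3.93-fold higher. The 2 comparisons share the LPS libraries. Between LPS+CPZ and LPS+EtOH the ratio differed by a log2 value of 0.50 ± 0.59 (exact permutation p = 0.4, adjusted 0.462), which was 1.07 without LPS+EtOH replicate 1, 0.33 without LPS+CPZ replicate 1, and 0.26 and 0.18 without LPS+EtOH replicates 2 and 3.

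Il1rn over Il1a was 1.41, 0.984 and 1.02 in LPS+CPZ and 2.72, 0.841 and 1.19 in LPS+EtOH, against 0.205, 0.307 and 0.195 in LPS. Both treatments stood above LPS in every library and overlapped each other. Of the summed FPKM of the 10 genes, Il1a and Il1b together made up 69.3 to 75.5% in LPS+CPZ and 65.4 to 83.7% in LPS+EtOH, against 94.6 to 95.8% in LPS. Il1rn made up 17.1 to 22.9%, 11.3 to 28.7% and 3.04 to 3.81% in the same order.

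**Figure D2:**
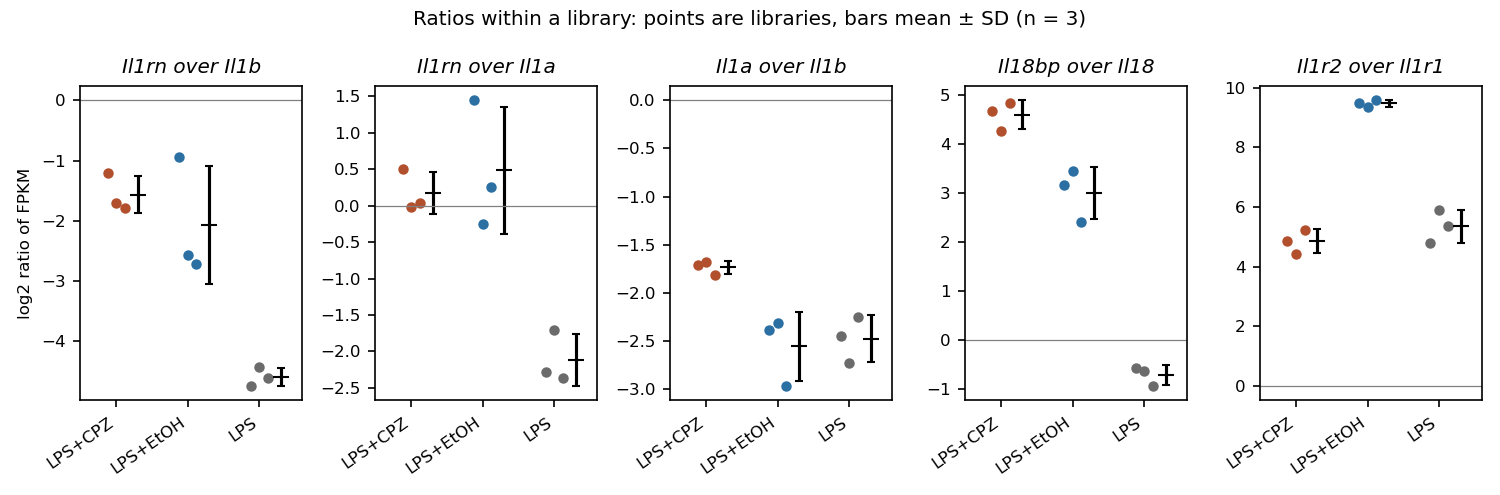
Log2 ratios of FPKM between paired genes within each library of LPS+CPZ, LPS+EtOH and LPS (points), with mean and SD (n = 3). Il1rn over Il1b and Il18bp over Il18 are higher in both treatments than in LPS, and Il1r2 over Il1r1 stands apart in LPS+EtOH alone. In the latter ratio Il1r1 was below 1 FPKM in every library.

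Promoter windows of the genes that carry these differences are shown so that the starts of the agonists, which were lower in LPS+CPZ, can be set beside those of the antagonist and the decoy receptor, which were higher in LPS+EtOH. RefSeq (GRCm38.p6) held windows of 250 bases before to 50 bases after a start for 9 of the 10 genes, 13 windows in all. They are given 5′ to 3′ on the strand of the gene, and capitals mark matches on either strand to 8 motifs: a TATA box (TATAAA), AP-1 (TGANTCA), PU.1 (GAGGAA), C/EBP (TTGCNNAA), NF-kB (GGGA, any base, TT, any base, CC), NRF2 (TGACNNNGC), a heat shock element (GAANNTTC) and an E-box (CACGTG). The motifs were chosen with the sequences seen.
Il1b, chr2:129371090-129371389, minus strand: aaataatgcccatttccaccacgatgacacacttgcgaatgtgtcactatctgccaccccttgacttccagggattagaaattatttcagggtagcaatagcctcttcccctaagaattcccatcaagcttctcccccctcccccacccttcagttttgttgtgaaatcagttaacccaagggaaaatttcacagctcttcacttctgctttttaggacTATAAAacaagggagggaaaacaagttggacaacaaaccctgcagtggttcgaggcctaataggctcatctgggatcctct
Il1a, chr2:129309923-129310222, minus strand: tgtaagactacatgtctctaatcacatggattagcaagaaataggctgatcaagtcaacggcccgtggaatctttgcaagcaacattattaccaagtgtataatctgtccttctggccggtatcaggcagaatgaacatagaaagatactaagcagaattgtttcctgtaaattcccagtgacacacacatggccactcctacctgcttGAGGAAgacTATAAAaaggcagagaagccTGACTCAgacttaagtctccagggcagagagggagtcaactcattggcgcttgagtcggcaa
Il1rn, chr2:24336610-24336909, plus strand: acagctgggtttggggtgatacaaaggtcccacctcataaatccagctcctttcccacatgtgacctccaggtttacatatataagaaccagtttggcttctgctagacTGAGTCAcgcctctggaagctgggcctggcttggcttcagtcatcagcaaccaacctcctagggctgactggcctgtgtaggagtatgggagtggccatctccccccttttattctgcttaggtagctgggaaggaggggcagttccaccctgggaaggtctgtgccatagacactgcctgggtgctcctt
Il1r2, chr1:40085843-40086142, plus strand: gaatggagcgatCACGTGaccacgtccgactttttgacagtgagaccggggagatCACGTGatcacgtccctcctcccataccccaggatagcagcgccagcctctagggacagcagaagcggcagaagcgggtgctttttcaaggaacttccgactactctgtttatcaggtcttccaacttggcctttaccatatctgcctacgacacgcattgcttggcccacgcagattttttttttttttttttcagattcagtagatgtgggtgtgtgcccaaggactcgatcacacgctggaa
Il1a and Il1b both held a TATA box, 32 and 31 bases before the start, a motif found in 13.6% of 32851 windows of this length. Il1a also held PU.1 letters 41 bases and AP-1 letters 12 bases before the start, present in 28.3% and 7.81% of windows, with none of these 3 motifs overlapping another. The Il1rn window shown, the most upstream of 3 for this gene, held AP-1 letters 141 bases before its start. Its other windows, chr2:24345041-24345340 and chr2:24345121-24345420, held no AP-1 letters. The latter held TATA box letters on the opposite strand, 15 bases after its start. FPKM per gene does not tell these starts apart. Il1r2 held the E-box letters at 238 and 195 bases before its start, and 7.15% of all windows held at least 1 such match. NF-kB letters as searched were in none of these 4 windows and in 1.20% of all windows.

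Of the receptor genes followed, the decoy and the accessory chain were higher in LPS+EtOH than in LPS. Il1r1, Il1rl1 and Sigirr, given below, were lower there as deposited. The decoy gene Il1r2 (ENSMUSG00000026073) stood at 19.3, 17.9 and 15.1 FPKM in LPS+CPZ and at 123, 124 and 108 FPKM in LPS+EtOH, against 27.4, 26.6 and 14.9 FPKM in LPS. The LPS+EtOH libraries stood far above all others, and LPS+CPZ overlapped LPS. Il1r2 was 5.16-fold higher in LPS+EtOH than in LPS (log2 change 2.36 ± 0.21, limma adjusted p = 1.44e-06) and lower in LPS+CPZ than in LPS+EtOH by a log2 change of -2.70 ± 0.21 (2.07e-06). Against LPS the change in LPS+CPZ was -0.34 ± 0.21 (limma adjusted p = 0.167), and it passed the test as a fall without LPS replicate 3 (-0.61, limma adjusted p = 0.00365) and with globin genes left out (-0.72, 0.0113).

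Il1rap (ENSMUSG00000022514), the chain that IL-1R1, IL-1RL1 and the IL-36 receptor share, stood at 12.6, 11.6 and 8.14 FPKM in LPS+CPZ and at 32.9, 27.6 and 25.7 FPKM in LPS+EtOH, against 10.1, 10.5 and 6.45 FPKM in LPS. Again LPS+EtOH stood alone and the other groups overlapped. Il1rap rose in LPS+EtOH against LPS (3.18-fold, log2 change 1.59 ± 0.20, limma adjusted p = 2.34e-05), and in LPS+CPZ it was lower than in LPS+EtOH (-1.35 ± 0.20, 0.000135). Its change in LPS+CPZ against LPS was 0.24 ± 0.20 (limma adjusted p = 0.310), which passed the test as a rise after median-ratio scaling (0.51, 0.0486) and quantile normalization (0.57, 0.0389) and was -0.11 with globin genes left out.

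Il1r1 (ENSMUSG00000026072), the signalling receptor of IL-1, was the least abundant member in LPS+CPZ and LPS and next to Sigirr in LPS+EtOH. It stood at 0.659, 0.826 and 0.399 FPKM in LPS+CPZ and at 0.172, 0.188 and 0.142 FPKM in LPS+EtOH, against 0.985, 0.445 and 0.362 FPKM in LPS. No library reached 1 FPKM, so that Il1r1 was left out of the test. LPS+EtOH stood below both other groups, and without the filter on low values its log2 change was -0.43 against LPS (limma adjusted p = 0.0625) and that of LPS+CPZ against LPS+EtOH 0.47 (0.0555). Decoy over signalling receptor, Il1r2 over Il1r1, was 29.3, 21.7 and 37.9 in LPS+CPZ and 717, 659 and 762 in LPS+EtOH, against 27.8, 59.9 and 41.2 in LPS. LPS+EtOH was 17.4-fold higher than LPS by this ratio (log2 difference 4.12 ± 0.32, exact permutation p = 0.1, the smallest possible, adjusted 0.136), and LPS+CPZ was 24.6-fold lower than LPS+EtOH and overlapped LPS. Because Il1r1, the denominator, was below 1 FPKM in every library, the size of these folds is uncertain.

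**Figure D3:**
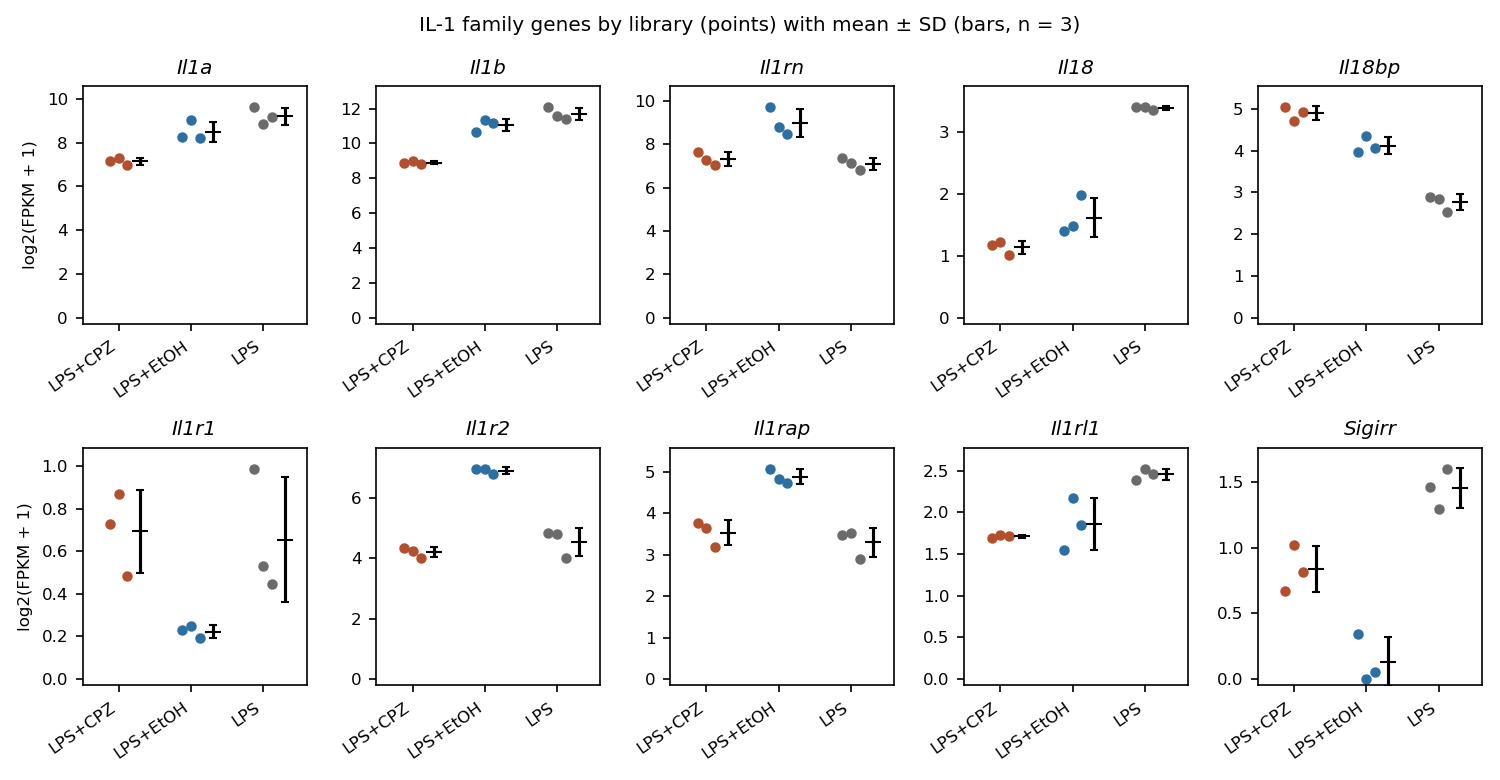
Log2(FPKM + 1) of the 10 genes in each library of LPS+CPZ, LPS+EtOH and LPS (points), with mean and SD (n = 3). Il1rn, Il1r2 and Il1rap stand highest in LPS+EtOH, Il18 stands highest in LPS at 9.17 to 9.55 FPKM, and Il1b stands lowest in LPS+CPZ.

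The 3 genes that rose in LPS+EtOH and overlapped LPS in LPS+CPZ were Il1rn, Il1r2 and Il1rap. Neutrophils, which are a known source of IL-1R2 and IL-1Ra, had markers that moved in the same libraries. All 10 markers were higher in LPS+EtOH than in LPS, as deposited and after median-ratio scaling, where 19.0% and 37.8% of all tested genes were. S100a9 stood at 33420 ± 2070 FPKM in LPS+EtOH against 3369 ± 551 in LPS. Csf3r, the G-CSF receptor gene of neutrophils, stood at 358 ± 3.36 FPKM in LPS+EtOH against 161 ± 49.2 in LPS, and Cxcr2 at 38.8 ± 15.7 against 11.3 ± 2.74. Their part in the rise of Il1rn, Il1r2 and Il1rap was not tested. In LPS+CPZ against LPS the markers did not move one way: 3 rose (Ly6g, S100a8 and Retnlg, by log2 changes of 3.97, 1.47 and 1.28), 3 fell (Cxcr2, Ltf and Csf3r, by -1.34, -1.09 and -0.64) and 4 did not pass the limma test. Of all tested genes 20.7% rose and 48.4% fell there. After median-ratio scaling 3 markers rose and 2 fell, where 27.5% and 34.1% of all genes did.

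IL-18 and its trap moved in opposite directions under both treatments. Il18 (ENSMUSG00000039217) stood at 1.24, 1.32 and 1.02 FPKM in LPS+CPZ and at 1.63, 1.77 and 2.93 FPKM in LPS+EtOH, against 9.55, 9.53 and 9.17 FPKM in LPS. The groups did not overlap, and the LPS libraries had a coefficient of variation of 2.27%. Il18 fell by 2.25 ± 0.15 on the log2(FPKM + 1) scale in LPS+CPZ (7.89-fold lower FPKM, limma adjusted p = 9.03e-07) and by 1.77 ± 0.15 in LPS+EtOH (4.46-fold lower, 1.3e-06). LPS+CPZ was below LPS+EtOH by -0.48 ± 0.15 (limma adjusted p = 0.0142), a call lost without LPS+CPZ replicate 3 (-0.42, limma adjusted p = 0.0528).

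Il18bp (ENSMUSG00000070427) stood at 31.9, 25.3 and 29.2 FPKM in LPS+CPZ and at 14.5, 19.3 and 15.6 FPKM in LPS+EtOH, against 6.43, 6.20 and 4.80 FPKM in LPS. These groups did not overlap either, and their order was the reverse of that of Il18. The rise was 4.96-fold in LPS+CPZ (log2 change 2.13 ± 0.15, limma adjusted p = 1.06e-06) and 2.84-fold in LPS+EtOH (1.36 ± 0.15, 7.55e-06). LPS+CPZ was above LPS+EtOH by 0.77 ± 0.15 as deposited (limma adjusted p = 0.000766) but by 0.03 after median-ratio scaling (0.882). The ratio of Il18bp to Il18 was 25.7, 19.2 and 28.6 in LPS+CPZ and 8.92, 10.9 and 5.33 in LPS+EtOH, against 0.672, 0.651 and 0.523 in LPS. It was 39.5-fold higher in LPS+CPZ than in LPS, 13.1-fold higher in LPS+EtOH than in LPS and 3.01-fold higher in LPS+CPZ than in LPS+EtOH, with no overlap in any pair (exact permutation p = 0.1 each, the smallest possible, adjusted 0.136). Because Il18, the denominator, stood at 1.02 to 1.32 FPKM in LPS+CPZ and 1.63 to 2.93 in LPS+EtOH, the size of these folds is uncertain.

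Il1rl1 (ENSMUSG00000026069), the IL-33 receptor gene, which mast cells carry, stood at 2.22, 2.31 and 2.30 FPKM in LPS+CPZ and at 1.92, 3.50 and 2.61 FPKM in LPS+EtOH, against 4.22, 4.76 and 4.49 FPKM in LPS. Both treatments stood below LPS and overlapped each other. Il1rl1 fell in LPS+CPZ against LPS (log2 change -0.74 ± 0.15, limma adjusted p = 0.00116), a call that quantile normalization removed (-0.37, 0.0537). In LPS+EtOH the change as deposited was -0.60 ± 0.15 (limma adjusted p = 0.00303), and its sign turned after median-ratio scaling (0.25, 0.204) and quantile normalization (0.35, 0.0550). Between LPS+CPZ and LPS+EtOH the change was -0.14 as deposited (limma adjusted p = 0.390), 0.01 without LPS+EtOH replicate 2 and -0.72 with a passed test after median-ratio scaling (0.00426) and likewise -0.73 after quantile normalization (0.00217). Mast cell markers (9 of 9) summed to 25.1 to 51.0 FPKM in LPS+CPZ and 205 to 273 in LPS+EtOH, against 176 to 204 in LPS. Most of the sum in LPS+EtOH and LPS was Hdc, the histidine decarboxylase gene, at 12.1 ± 2.17 FPKM in LPS+CPZ and 199 ± 17.2 in LPS+EtOH, against 116 ± 21.4 in LPS. Of the 7 markers tested, 1 rose (Hdc) and 3 fell in LPS+EtOH against LPS as deposited, where 19.0% and 64.6% of all tested genes did. Those that fell were Cpa3 (3.68 ± 2.80 FPKM against 10.05 ± 2.66 in LPS), Mcpt4 (7.07 ± 3.03 against 22.9 ± 6.83) and Tpsb2 (3.42 ± 2.06 against 7.48 ± 2.53). After median-ratio scaling 3 of the 7 markers rose and 0 fell, where 37.8% and 42.1% of all genes did. In LPS+CPZ against LPS 0 rose and 5 fell under both scalings. Of all genes 20.7% rose and 48.4% fell there as deposited, and 27.5% and 34.1% after median-ratio scaling. Ms4a2, an IgE receptor gene, averaged below 0.1 FPKM in every group and was listed at 0 in all LPS+EtOH libraries. The part of mast cell transcripts in the level of Il1rl1 was not tested.

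Sigirr (ENSMUSG00000025494) stood at 0.594, 1.03 and 0.757 FPKM in LPS+CPZ and at 0.269, 0 and 0.0353 FPKM in LPS+EtOH, against 1.76, 1.45 and 2.04 FPKM in LPS. It passed the filter of 1 FPKM in 3 libraries through the LPS group and 1 LPS+CPZ library, so that its call against LPS was bound to the group in which it was high. Its log2 changes are therefore given as a description, -0.62 in LPS+CPZ against LPS, -1.32 in LPS+EtOH against LPS and 0.71 in LPS+CPZ against LPS+EtOH. The 3 groups did not overlap.

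Counted together, 9 of the 10 genes passed the filter, Sigirr through the LPS group in which it was high. Its calls are in the counts of members lower than LPS and are no evidence of their own. In LPS+EtOH against LPS 4 of them rose (Il1rn, Il18bp, Il1r2 and Il1rap), where 19.0% of all 11721 tested genes rose, and 5 fell, where 64.6% of all genes fell. Over all genes the log2 change had a median of -0.82 as deposited and -0.08 after median-ratio scaling, under which 4 members were higher and 2 were lower (37.8% and 42.1% of all genes). In either direction 9 of 9 were called, where 83.6% of all genes were. LPS+CPZ against LPS gave 1 member that rose, Il18bp, and 5 that fell, while 20.7% of all genes rose, 48.4% fell and 69.2% did either, with a median change of -0.33. After median-ratio scaling 2 members were higher and 5 lower there (27.5% and 34.1% of all genes). Between the treatments 6 members were lower and 2 higher (Il18bp and Sigirr) in LPS+CPZ than in LPS+EtOH, where 15.2% of all genes were lower, 61.4% were higher, 76.6% were either and the median change was 0.55. After median-ratio scaling 7 were lower and 1 higher (31.4% and 35.6% of all genes). With Il1r1 included among the members, while the shares are over the 11721 tested genes, ranges of the groups were disjoint for 9 of the 10 members in LPS+EtOH against LPS (4 higher and 5 lower, with 19.5% and 65.3% of all genes), for 6 in LPS+CPZ against LPS (1 higher and 5 lower, with 22.3% and 50.7%) and for 9 in LPS+CPZ against LPS+EtOH (3 higher and 6 lower, with 62.9% and 16.0%).

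**Figure D4:**
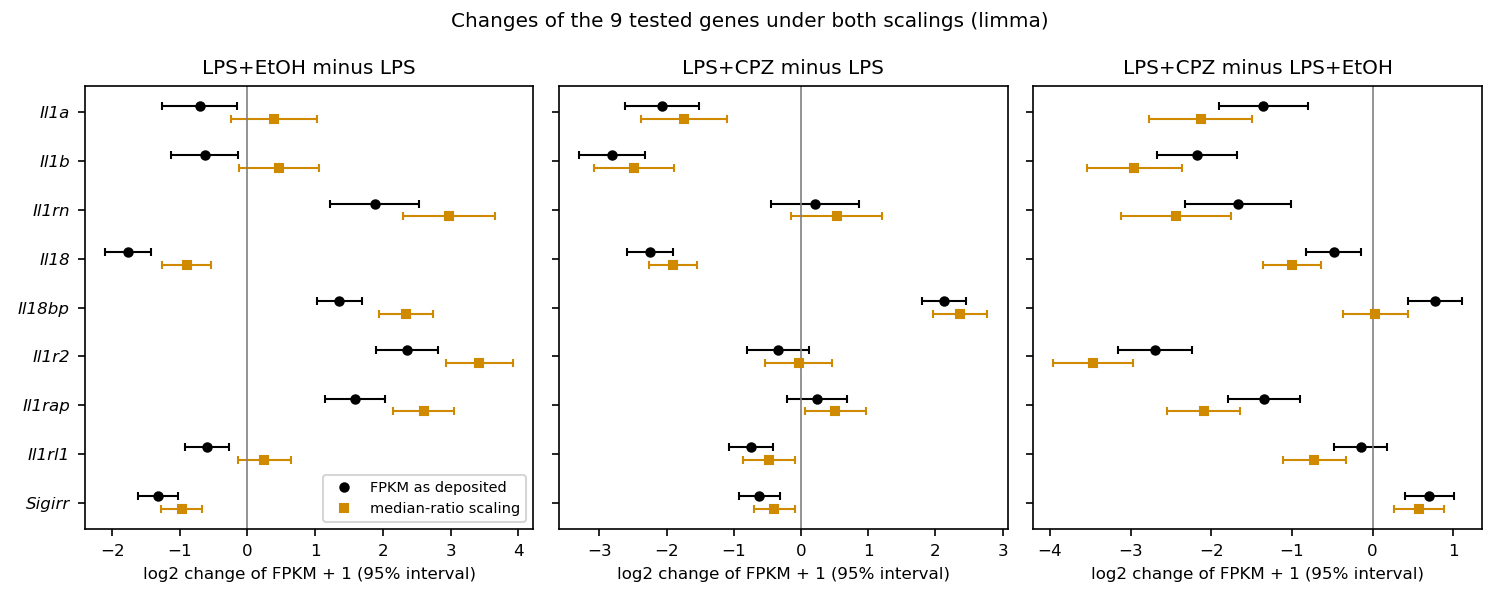
Log2 changes with 95% intervals of the 9 tested genes in LPS+EtOH minus LPS, LPS+CPZ minus LPS and LPS+CPZ minus LPS+EtOH (limma), from FPKM as deposited (circles) and after median-ratio scaling (squares). Il1a, Il1b and Il1rl1 lie below 0 as deposited and above 0 after scaling in LPS+EtOH minus LPS, while Il1rn, Il18bp, Il1r2 and Il1rap lie above 0 under both.

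Of the other 11 genes of the family, 4 passed the filter, and all 4 rose in LPS+EtOH against LPS, as deposited and after median-ratio scaling, where 19.0% and 37.8% of all tested genes rose. The deposited table lists Il36g and Il36a under the older symbols Il1f9 and Il1f6. Il36g, the gene of the agonist IL-36γ, was the most abundant of them, at 2058 ± 267 FPKM in LPS+CPZ and 2522 ± 72.0 in LPS+EtOH against 975.3 ± 136 in LPS. It rose in LPS+CPZ (log2 change 1.08 ± 0.16, limma adjusted p = 0.000170). In LPS+CPZ Il36g was thus above Il1b, which stood at 473 ± 32.3 FPKM. By mean Il36g was also above Il1b in LPS+EtOH (Il1b at 2182 ± 507 FPKM), where the libraries of the 2 genes overlapped. In LPS it was below Il1b (3381 ± 859 FPKM). Il36a, which encodes the agonist IL-36α, stood at 3.72 ± 0.805 FPKM in LPS+CPZ and 16.4 ± 2.90 in LPS+EtOH, against 1.27 ± 0.361 in LPS, and rose in LPS+EtOH by 2.93 ± 0.18 (limma adjusted p = 1.69e-07) and in LPS+CPZ by 1.05 ± 0.18 (0.000446). Il18rap, the accessory chain of the IL-18 receptor, stood at 12.8 ± 3.71, 62.2 ± 3.01 and 19.98 ± 1.79 FPKM in LPS+CPZ, LPS+EtOH and LPS, with log2 changes of 1.59 ± 0.18 in LPS+EtOH against LPS (limma adjusted p = 1.16e-05) and -2.24 ± 0.18 in LPS+CPZ against LPS+EtOH (3.28e-06). Its change in LPS+CPZ against LPS was -0.64 (limma adjusted p = 0.00970), a call lost after median-ratio scaling (-0.34, 0.153) and quantile normalization (-0.46, 0.059). Il33, Il36b, Il36rn and Il1rl2 had group means below 1 FPKM, and Il1f10 and Il1rapl1 were listed at 0 throughout, with Il1rapl2 above 0 in 1 library.

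Genes for the processing and release of IL-1 (IL-1α or IL-1β) and IL-18 numbered 21, of which 18 were tested. In LPS+EtOH against LPS 5 rose and 11 fell, where 19.0% of all genes rose and 64.6% fell (median log2 change -0.60, against -0.82 over all genes). After median-ratio scaling 9 rose and 6 fell, where 37.8% and 42.1% of all genes did. Mefv, the gene of the inflammasome sensor pyrin, rose to 451 ± 14.3 FPKM in LPS+EtOH against 130 ± 25.6 in LPS (log2 change 1.80 ± 0.18, limma adjusted p = 3.36e-06), while the calpain gene Capn2 fell to 1.65 ± 0.332 FPKM against 8.75 ± 1.59 (-1.87 ± 0.15, 7.16e-07). Against LPS alone, LPS+CPZ had 3 that rose and 12 that fell, where 20.7% of all genes rose and 48.4% fell (median -0.45, against -0.33 over all genes), and 3 that rose and 8 that fell after median-ratio scaling (27.5% and 34.1% of all genes). P2rx7, the ATP-gated channel that triggers IL-1β release, was at 8.30 ± 0.826 FPKM in LPS+CPZ and 0.0947 ± 0.0346 in LPS+EtOH, against 1.49 ± 0.258 in LPS. It rose in LPS+CPZ against LPS (log2 change 1.90 ± 0.12, limma adjusted p = 4.53e-07) and was higher in LPS+CPZ than in LPS+EtOH (3.08 ± 0.12, 7.99e-08). Casp8, which encodes a caspase able to cut the IL-1β precursor, fell in LPS+CPZ to 11.5 ± 1.44 FPKM against 24.6 ± 1.67 in LPS (-1.03 ± 0.12, 2.9e-05). Compared with LPS+EtOH, LPS+CPZ had 6 higher and 7 lower as deposited (61.4% and 15.2% of all genes), and 2 higher and 11 lower after median-ratio scaling (35.6% and 31.4%). Panx1, a membrane channel gene, was higher in LPS+CPZ (3.94 ± 0.285 FPKM against 0.566 ± 0.148 in LPS+EtOH, limma adjusted p = 9.45e-07), and Casp4, the caspase that senses cytosolic LPS, was lower (39.8 ± 7.40 FPKM against 143 ± 19.9, 4.83e-06). The neutrophil proteases that can cut IL-1β, Elane, Prtn3 and Ctsg, were below 0.2 FPKM in all libraries.

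Among 23 genes that carry the IL-1 receptor signal, 21 were tested. In LPS+EtOH against LPS 5 rose and 10 fell as deposited, where 19.0% of all genes rose and 64.6% fell (median log2 change -0.31, against -0.82 over all genes). After median-ratio scaling 14 rose and 6 fell, where 37.8% and 42.1% of all genes did. Ikbkb, which encodes the IKK-beta kinase, stood at 0.981 ± 0.0945 FPKM in LPS+EtOH against 8.44 ± 0.713 in LPS (log2 change -2.25 ± 0.12, limma adjusted p = 7.19e-08), and the kinase gene Map3k3 at 5.02 ± 0.709 against 20.6 ± 1.80 (-1.85 ± 0.13, 2.93e-07). Tollip, an adaptor gene that restrains IL-1 receptor signalling, rose to 51.0 ± 2.14 FPKM against 24.3 ± 1.34 (1.04 ± 0.10, 3.12e-06). With CPZ 3 rose and 10 fell against LPS as deposited (20.7% and 48.4% of all genes, medians -0.26 and -0.33), and 6 rose and 6 fell after median-ratio scaling (27.5% and 34.1%). Nfkb1, which encodes an NF-kB subunit, fell to 20.1 ± 3.67 FPKM against 99.5 ± 12.7 (-2.26 ± 0.15, 9.51e-07). Ikbkb also fell in LPS+CPZ (-1.69, limma adjusted p = 1.03e-06), while Ikbkg, the gene of the IKK regulatory subunit, rose (2.53, 2.62e-06). In LPS+CPZ against LPS+EtOH 11 were higher and 6 lower as deposited (61.4% and 15.2% of all genes), and 6 higher and 10 lower after median-ratio scaling (35.6% and 31.4%). The adaptor gene Myd88 was at 22.6 ± 1.33 FPKM in LPS+CPZ against 97.3 ± 2.76 in LPS+EtOH (-2.06 ± 0.13, limma adjusted p = 6.54e-07), and the kinase gene Irak1 at 10.97 ± 0.597 against 3.83 ± 0.295 (1.31, 4.79e-06).

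The genes whose pattern was closest to that of a member were named by the root mean square difference of log2(FPKM + 1) over the 9 libraries, each gene centred on its mean, among 4710 other genes with a mean of at least 5 FPKM. For Il18 these were Ikzf1 (0.117) and Dgka (0.120), with Ikzf1 at 3.09 ± 0.347 FPKM in LPS+CPZ, 4.30 ± 0.547 in LPS+EtOH and 18.8 ± 1.48 in LPS. For Il1b they were Parp14 (0.228) and Ifitm3 (0.229), for Il1a Lrrc8c (0.274) and Plek (0.289), and for Il1rn Il1rap (0.283) and Pxn (0.288). Il1rn was thus closest to another gene of the family. All 4 members share libraries and scaling with their neighbours.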

How the data were processed

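The authors deposited FPKM per gene for 9 strand-specific TruSeq libraries. Per the submitters' processing notes FastQC 0.11.2, STAR and StringTie were used, the last 2 without versions. Those notes name hg38, whereas the gene IDs are of mouse, so promoter coordinates are RefSeq's. Columns were assigned by the names in the sample titles. Total FPKM was 302126 to 363356. Whole multiples of a common step fitted 25.0 to 27.6% of low values (tolerance 2%), so fragments were not recovered, depth is unknown and no counting error is given.

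A gene was tested if 3 or more libraries reached 1 FPKM, which left 11721. limma 3.58.1 in R 4.3.3 was run on log2(FPKM + 1) across the 9 libraries with 1 coefficient per group, a trended eBayes prior and 6 residual degrees of freedom. Tests were two-sided, with Benjamini-Hochberg adjustment over every tested gene and a threshold of 0.05. This scale understates fold changes of weakly expressed genes. Ratios had exact permutation tests over libraries. The fit was tried on simulated data in which few genes changed and the scaling did not, so the choice of scaling was not tested there.

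Members, lists and motifs were chosen with earlier results of these data known. Every member is named. Per pathway list and comparison the 2 smallest adjusted p are named, plus the smallest of the opposite direction where it passed. Other genes named singly were picked with their values known. Alternatives changed the pseudocount (0.1 or 5), the filter (none, or 5 FPKM), the scaling (TPM, median-ratio, quantile, or TPM with globin genes left out), the eBayes prior (no trend, or robust), the libraries in the fit (only those compared, or each left out) and a replicate block. Data were prepared and plotted with Python 3.11.15, its pandas 2.3.3, scipy 1.17.1 and matplotlib 3.10.9 modules.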

Additional observations from a re-analysis of the deposited data

How the results depend on the processing

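The calls for Il1rn, Il18, Il18bp, Il1r2 and Il1rap in LPS+EtOH against LPS kept direction and threshold in all 21 alternatives, as did those for Il1a, Il1b, Il18 and Il18bp in LPS+CPZ against LPS and for Il1a, Il1b, Il1rn, Il1r2 and Il1rap in LPS+CPZ against LPS+EtOH. Signs turned after median-ratio scaling for Il1a (0.39), Il1b (0.47) and Il1rl1 (0.25, and 0.35 after quantile normalization) in LPS+EtOH against LPS, and with globin genes left out for Il1rn (-0.16) and Il1rap (-0.11) in LPS+CPZ against LPS. For Il1rl1 in LPS+CPZ against LPS+EtOH the change ranged from -0.30 to 0.013 with a library left out, the highest without LPS+EtOH replicate 2. The cause was not tested. Without any filter Il1a and Il1b in LPS+EtOH against LPS no longer passed (limma adjusted p = 0.0703 and 0.0776), where 33417 genes were tested. Of members lower in LPS+EtOH against LPS there were 5 as deposited, 2 after median-ratio scaling and 3 without a filter, with the filter of 5 FPKM, without LPS replicate 1 and without LPS+EtOH replicate 1. With the filter of 5 FPKM Il1rl1 and Sigirr were not tested, and Il1a, Il1b and Il18 kept their calls in LPS+EtOH against LPS. Of all genes 2230 rose and 7566 fell in that comparison, against 4435 and 4936 after median-ratio scaling. In LPS+CPZ against LPS+EtOH 7195 were higher and 1785 lower, against 4169 and 3686. The filter of 5 FPKM left 6419 genes, of which 1575 rose and 3770 fell in LPS+EtOH against LPS, 1645 rose and 3096 fell in LPS+CPZ against LPS (2432 and 5674 with the filter of 1 FPKM), and 3764 were higher and 1229 lower in LPS+CPZ against LPS+EtOH. The log2 difference of Il1a over Il1b in LPS+EtOH against LPS was -0.08 and ranged from -0.21 to 0.13 with a library left out, and that of Il1rn over Il1a in LPS+CPZ against LPS+EtOH was -0.31 and ranged from -0.68 to 0.17. Same-numbered libraries shared deviations from their group means with correlations of -0.006 to 0.260, against -0.204 to 0.127 for other-numbered ones. Not all same-numbered values were above 0.1, so the numbers were not taken as pairs, though these values cannot exclude pairing. With the replicate block 9, 6 and 8 members were called in LPS+EtOH against LPS, LPS+CPZ against LPS and LPS+CPZ against LPS+EtOH, the counts found without it. The unknown depth limits what can be said of Il1r1 and Sigirr.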
